A study of Mus musculus with 8 samples.

Results

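The regions described here are the processed pseudogenes of the mouse genome that gave reads in cultured motor neurons. They were chosen by 2 criteria: the GENCODE M21 gene type processed_pseudogene, and 20 or more counts summed over the 8 libraries. Of 9937 annotated processed pseudogenes in the deposited table, 782, or 7.87%, met the count criterion. They were split by position relative to protein-coding genes: 231 lay within a coding gene on the same strand, 72 within a coding gene on the opposite strand only, and 479 outside coding genes. The choice used the counts of Input and pull-downs together, so how many were chosen is a description and not a result.

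The cells were motor neurons differentiated from the mouse embryonic stem cell line HBG3, which carries an HB9::GFP reporter (green fluorescent protein under the promoter of a motor neuron gene), and were taken 3 days after plating. All 4 groups came from these cells and had 2 libraries each, from 2 independent experiments: Input, the RNA before capture; LacZ, captured with biotinylated antisense probes against a bacterial mRNA as the negative control; and ODD and EVEN, captured with separate sets of 20-nt probes against the long noncoding RNA Lhx1os. Enrichment in the study was read by setting the pull-downs against Input, which asks what Lhx1os brings along. All libraries carry RNA of 1 cell line, and in bulk RNA a smaller number of expressing cells and less RNA per cell cannot be told apart. Total counts ran from 7632775 to 24628435 per library, with Input the deepest. Lhx1os had counts of 55 and 61 (Input), 16 and 28 (LacZ), 2239 and 371 (ODD) and 1767 and 283 (EVEN). Of the lists of cell type markers, 6 of 7 motor neuron genes and 5 of 5 neuronal genes reached 1 FPKM in Input, as did 0 of 3 pluripotency genes (1 of them at 0), 4 of 6 progenitor or glial genes and 2 of 4 genes of other types. The summed FPKM of the motor neuron genes was 60.1 to 111 in Input and 65.0 to 104 in the pull-downs, and that of the progenitor or glial genes was 295 to 455 and 239 to 368. The part of other cells in the results below was not tested.

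A processed pseudogene is a copy of a messenger RNA that was reverse transcribed and inserted back into the genome by the machinery of LINE elements. It therefore lacks the introns and the promoter of its parent gene, often carries disabling changes, and is found most often for genes with abundant mRNAs, such as those of ribosomal proteins and glycolysis. A copy that landed in an intron on the same strand is transcribed as part of the host gene's unspliced RNA. A copy that is still nearly identical to its parent shares most short reads with it, so its count can hold reads of the parent's mRNA, or lose reads to it, depending on how reads with several matches were counted; no source used here gives that setting.

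The sequences show both ends of this range. Each line gives 100 bases of a pseudogene on its own strand, 5′ to 3′, from GENCODE M21 transcripts on GRCm38, over a stretch that aligns without gaps to the coding sequence of its parent. Capitals mark bases that differ from the parent. Gm14824 (chrX:105328376-105328475, minus strand) is a copy of the polarity gene Crb1 and lies outside coding genes. Gm13315 (chr2:14721134-14721233, plus strand) and Gm9247 (chr14:93195517-93195616, minus strand) are copies of Ldha, a subunit of lactate dehydrogenase, in introns of Cacnb2 and Pcdh9 on the same strand. Gm5466 (chr2:181896823-181896922, plus strand) is a copy of Pabpc4, a cytoplasmic poly(A)-binding protein, also outside coding genes. Rps3a3 (chr13:108670603-108670702, plus strand) is a copy of Rps3a1, a protein of the small ribosomal subunit, in an intron of Pde4d on the same strand. Gm10052 (chr9:123690093-123690192, minus strand) is a copy of Hnrnpa1, a splicing regulator, in an intron of Ccr9 on the opposite strand.
Gm14824: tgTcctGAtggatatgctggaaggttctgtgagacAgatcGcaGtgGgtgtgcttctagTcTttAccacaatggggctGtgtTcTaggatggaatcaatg
Gm13315: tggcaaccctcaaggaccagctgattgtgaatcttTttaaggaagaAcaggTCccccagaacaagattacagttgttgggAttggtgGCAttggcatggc
Gm9247: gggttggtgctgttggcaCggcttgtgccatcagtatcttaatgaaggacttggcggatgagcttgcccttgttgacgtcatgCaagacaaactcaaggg
Gm5466: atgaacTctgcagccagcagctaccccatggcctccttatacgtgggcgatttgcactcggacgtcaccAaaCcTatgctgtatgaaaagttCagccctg
Rps3a3: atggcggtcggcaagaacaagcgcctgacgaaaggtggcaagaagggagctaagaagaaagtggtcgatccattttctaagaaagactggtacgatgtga
Gm10052: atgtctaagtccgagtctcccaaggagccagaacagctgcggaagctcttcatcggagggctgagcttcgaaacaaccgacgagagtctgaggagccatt
In these stretches Gm14824 differed from its parent at 13 bases, Gm13315 at 8, Gm5466 at 5 and Gm9247 at 2, while Rps3a3 and Gm10052 differed at 0. Over the whole pseudogene, the longest run of bases identical to the parent was 31 in Gm14824, 54 in Gm13315, 85 in Gm9247, 119 in Gm5466, 215 in Rps3a3 and 749 in Gm10052. Uniqueness is given below as the percentage of a pseudogene's 50-base stretches (50-mers) that were found in no other annotated transcript. It was 100% for Gm14824, 90.02% for Gm13315, 76.3% for Gm9247, 86.0% for Gm5466, 34.9% for Rps3a3 and 0% for Gm10052. The measure does not cover copies outside annotated transcripts, because no genome sequence was used.

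The pseudogenes of the 3 locations differed in their sequences. The median uniqueness was 93.2% for same-strand, 35.2% for opposite-strand and 44.3% for outside pseudogenes, and the median identity to the parent was 90.7%, 98.7% and 97.9%. In all, 354 of the 782 had under 50% of their 50-mers unique and 105 had all of them unique. A parent was found for 777 of the 782, and in 770 the pseudogene carried it in the sense direction. The leading parents were Gapdh and Rps2 with 13 pseudogenes each, Eef1a1 with 11 and Hmgb1 with 9. A single exon made up 738 of the 782. The median length was 718, 602 and 867 bases in the same order, and the median GC content was 48.0%, 50.3% and 49.3%.

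Position on the strand of a coding gene went with being counted at all. Of 788 annotated same-strand pseudogenes, 29.3% reached 20 counts and 212 were at 0 in all 8 libraries. Of 1346 opposite-strand pseudogenes 5.35% reached 20 counts and 960 were at 0, and of 7803 outside ones 6.14% reached 20 and 5582 were at 0. Just inside the threshold, at exactly 20 counts, lay 8 same-strand, 2 opposite-strand and 7 outside pseudogenes, and just outside it, at 19 counts, 12, 2 and 11. Among copies with 90% or more of their 50-mers unique, 124 of 486 same-strand, 7 of 824 opposite-strand and 43 of 4752 outside copies reached 20 counts. The kit was stranded, per the labels' protocols, but no source used here says whether counting used the strand.

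Same-strand pseudogenes took a larger share of the counts in the pull-downs than in Input, with LacZ probes as well as with ODD and EVEN. Over all 788 annotated ones the level was 1.29 to 2.44 times that of the own Input, meaning the Input library of the same replicate number. The values that depend least on the choice of members and on shared reads are sums over all annotated pseudogenes whose 50-mers are all unique, whatever their counts. For the 316 same-strand ones, which span 172 kb, the level, in FPKM computed from the summed counts and the summed length, was 0.0843 and 0.117 (Input), 0.521 and 0.647 (LacZ), 0.477 and 0.644 (ODD), and 0.478 and 0.395 (EVEN). All 6 pull-down libraries lay above both Input libraries. Each pull-down held 3.39 to 6.18 times the level of its own Input, with the lowest value in EVEN replicate 2. Leaving out the 3 most abundant of these pseudogenes gave 3.26 to 6.08 times.

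For the 574 opposite-strand copies of this kind the level was 0.0139 and 0.0128 (Input), 0.0238 and 0.0197 (LacZ), 0.0267 and 0.0174 (ODD) and 0.0229 and 0.0128 (EVEN). It was 0.994 to 1.92 times that of the own Input, and EVEN replicate 2 lay below both Input libraries. For the 3229 outside copies it was 0.00452 and 0.0061 (Input), 0.0113 and 0.0146 (LacZ), 0.00988 and 0.0146 (ODD) and 0.00939 and 0.00978 (EVEN), or 1.60 to 2.49 times the own Input. The smallest ratio of the same-strand copies, 3.39, thus lay above the largest of the other locations. In Input, the same-strand copies were already the most abundant per kb. The opposite-strand sum rested on few pseudogenes: without its 3 most abundant, 20 and 22 Input counts were left and the ratios ran from 1.37 to 4.02.

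**Figure D1:**
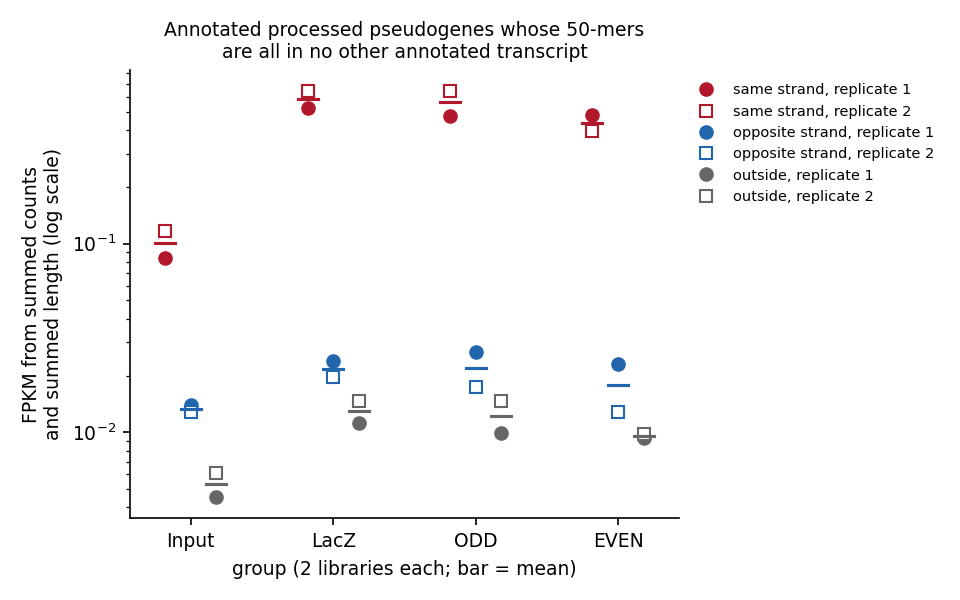
FPKM computed from summed counts and summed length (log axis) in each of the 8 libraries, for annotated processed pseudogenes whose 50-mers are all in no other annotated transcript, by location; points are libraries and bars group means. Same-strand copies lie at 0.0843 and 0.117 in Input and between 0.395 and 0.647 in the pull-downs, and the other locations lie below them in every library.

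Over the 231 same-strand members themselves, the summed CPM (counts scaled to library size) was 186 and 237 (Input), 418 and 405 (LacZ), 385 and 368 (ODD) and 379 and 301 (EVEN). The 3 most abundant members, all nearly identical to their parents, hold most of the Input sum. The mean of the pull-downs was 2.12 times Input in replicate 1 and 1.51 times in replicate 2. Without these 3 the sum was 61.8 and 84.9 in Input and 183 to 280 in the pull-downs, which was 3.54 times Input in replicate 1 and 2.82 times in replicate 2. The 72 opposite-strand members summed to 65.4 and 70.2 in Input and 68.6 to 126 in the pull-downs, where ODD replicate 2 lay between the Input libraries. The 479 outside members summed to 859 and 900 in Input and 974 to 1335 in the pull-downs.

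Member by member, all 6 pull-down CPM values lay above both Input values in 156 of 231 same-strand members, or 67.5%. This held for 12 of 72 opposite-strand members (16.7%) and 102 of 479 outside members (21.3%), where the share over all genes with 20 or more counts was 17.6%. The reverse order, all pull-downs below both Inputs, was seen in 2, 1 and 7 members. Because the choice of members counts pull-down reads, the order was also read in pseudogenes chosen on Input alone, with 10 or more counts over the Input libraries; this set was added after seeing the data. There it held for 55 of 96 same-strand (57.3%), 6 of 53 opposite-strand (11.3%) and 55 of 316 outside pseudogenes (17.4%), and for 14.2% of all genes chosen in the same way. Among those with 90% or more of their 50-mers unique it held for 26 of 34 same-strand and 4 of 24 outside pseudogenes, with median log2 ratios of CPM of 1.79 and 0.06.

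In edgeR's quasi-likelihood test of the mean of the 3 kinds of pull-down against Input, 378 members passed the filter on low counts and 404 did not. Of those tested, 62 of 124 same-strand members were higher in the pull-downs at an adjusted p under 0.05, as were 1 of 31 opposite-strand and 12 of 223 outside members, where 8.37% of all 16524 genes tested were higher. Lower were 1 outside member and 0 of the others, against 1.79% of all genes; at an unadjusted p under 0.05, 2 same-strand and 0 opposite-strand members were lower, and DESeq2 likewise called 0 lower in these locations. The median log2 fold change was 2.11 for same-strand, 0.62 for opposite-strand and 0.52 for outside members, beside -0.02 for all genes. It was positive in 119 of 124, 23 of 31 and 179 of 223. Setting the 4 same-strand members with 0 Input counts at their lower bounds left the median at 2.11.

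The filter bears on these counts. Of the 124 same-strand members tested, 110 passed only through the pull-downs, and all 62 called were among them. The 14 that passed in Input itself had a median log2 fold change of 0.43 with 0 called by edgeR or DESeq2. At an unadjusted p under 0.05 by edgeR, 2 were higher and 2 lower. Apart from Gm11870, at 100% with a log2 fold change of 0.37, they had 0.68% to 77.5% of their 50-mers unique. Their counts can thus hold reads of their parents. In the fit without the filter, 105 same-strand, 5 opposite-strand and 38 outside members were higher, against 7.45% of 28192 genes. With the replicate number as a block, which pairs same-numbered libraries, 98 same-strand, 1 opposite-strand and 45 outside members were higher, against 16% of genes. The 62, 1 and 12 members called without the block were all called with it. The counts depended on the Input libraries: without Input replicate 1, 6 same-strand and 0 outside members were called, which is 6 of 485 members tested against 267 of 17136 genes (1.24% and 1.56%). Without Input replicate 2, 23 and 2 were called, or 25 of 483 members against 815 of 17089 genes (5.18% and 4.77%). In these fits the same-strand median was 1.82 and 2.36.

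**Figure D2:**
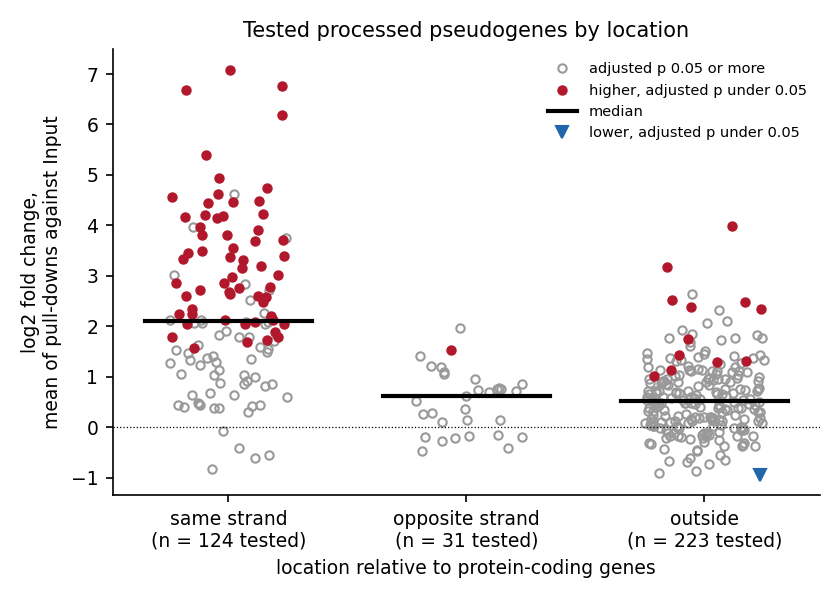
Log2 fold change of the mean of the pull-downs against Input for each tested processed pseudogene, by location; filled points passed an adjusted p of 0.05 and bars are medians. Same-strand members have a median of 2.11, while the medians of opposite-strand and outside members are 0.62 and 0.52.

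Calls were made with LacZ control probes as well as with Lhx1os probes. Against Input, 52 same-strand, 1 opposite-strand and 22 outside members were higher in LacZ (background 6.98%). In ODD 44 same-strand and 4 outside members were higher (background 6.46%), and in EVEN 30 and 5 (background 5.37%). In ODD and in EVEN edgeR and DESeq2 called 0 opposite-strand members, and 2 in each were higher at an unadjusted p under 0.05. The same-strand median log2 fold change was 2.28 in LacZ, 2.17 in ODD and 1.95 in EVEN. The outside median was 0.80, 0.33 and 0.36, and the opposite-strand median 1.05, 0.20 and 0.35. These comparisons share the Input libraries. The order of the 3 counts, 75, 48 and 35 in all, was not kept when LacZ replicate 2 was left out and 1 LacZ library remained. With the replicate block, 147 members were higher in LacZ (12.7% of all genes), 94 in ODD (12.6%) and 88 in EVEN (12.8%). All 3 counts fell when Input replicate 1 was left out. The share over all genes for these comparisons with a library left out is not given here.

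Set directly against LacZ, the mean of ODD and EVEN gave no call: edgeR and DESeq2 called 0 members, and edgeR called 0% of all genes. Thus edgeR did not call the captured Lhx1os either, with 16 and 28 counts in LacZ and 283 to 2239 in ODD and EVEN. The lack of calls therefore cannot show that the members did not differ. At an unadjusted p under 0.05, 0 same-strand members were higher and 5 lower in ODD and EVEN, 0 opposite-strand were higher and 6 lower, and 1 outside member was higher and 37 lower, where 1.32% of all genes passed in either direction. The median log2 difference was -0.30, -0.52 and -0.32 in the same order, and 0.01 over all genes. The 3 members with the lowest p were copies of translation genes. Rps23-ps2, on the opposite strand of C330021F23Rik, had counts of 25 and 22 (Input), 17 and 40 (LacZ), 7 and 3 (ODD) and 15 and 14 (EVEN), a log2 difference of -1.94 ± 0.36 (SE), adjusted p 1.00 by edgeR. Rpl17-ps5 had 28 and 26 counts in LacZ and 4 to 13 in ODD and EVEN, and Gm4366, a copy of Eef1g, 78 and 140 in LacZ and 49 to 69 in ODD and EVEN. Rps23-ps2 has 13.1% of its 50-mers unique, Rpl17-ps5 0% and Gm4366 18.02%, so these counts can hold reads of their parents.

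The same-strand members with the largest increases, named among those with 4 or more counts in the Input libraries together, had 4 to 8 there. Gm18398, in an intron of Erc2, a scaffold gene of the presynaptic active zone, lies at chr14:27714377-27715877, and the intron spans 70.8 kb. It had counts of 3 and 1 (Input), 15 and 39 (LacZ), 30 and 42 (ODD) and 25 and 22 (EVEN), although Input was sequenced more deeply. Its log2 fold change was 4.74 ± 0.55 (SE) with an adjusted p of 0.0039 by edgeR. All 6 pull-downs lay above both Inputs, while Erc2 itself, counted over its annotated exons, had a log2 fold change of 0.14 with an adjusted p of 0.802. All 50-mers of Gm18398 are unique.

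Gm13315 (chr2:14721134-14722124) and Gm13312 (chr2:14672255-14672972) lie in the same intron, of 125 kb, of Cacnb2, which encodes a subunit of voltage-gated calcium channels. Gm13315 had counts of 2 and 6 (Input), 23 and 55 (LacZ), 50 and 43 (ODD) and 37 and 28 (EVEN). Gm13312 had 3 and 4 (Input), 21 and 35 (LacZ), 42 and 41 (ODD) and 35 and 22 (EVEN). Neither overlapped between Input and pull-downs. The log2 fold changes were 4.23 ± 0.51 and 4.16 ± 0.40 (SE), with adjusted p-values of 0.0044 and 0.0024 by edgeR, beside 0.64 (adjusted p 0.0827) for Cacnb2 and -0.10 for Ldha. Gm13312 is closest to the annotated coding gene Gm20390.

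Gm15989 (chr5:110905244-110905741), a copy of the ubiquitin ligase gene Mkrn1 in Ttc28, had 3 and 1 counts in Input and 11 to 24 in the pull-downs; the log2 fold change was 3.96 ± 0.46 (SE), adjusted p 0.0039 by edgeR. Gm14021 (chr2:121700765-121701725), a copy of the septin gene Sept2 in Frmd5, had 2 and 2 counts in Input and 9 to 44 in the pull-downs; the log2 fold change was 4.49 ± 0.74 (SE), adjusted p 0.0119 by edgeR. The call of Gm14021 was lost without either Input library. The host Ttc28 had a value of -0.27 (adjusted p 0.307) and the host Frmd5 one of -0.13 (adjusted p 0.78).

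For called members with 1 Input count the size of the difference is poorly known. Gm9247, the Ldha copy in the protocadherin gene Pcdh9, had counts of 0 and 1 (Input), 12 and 22 (LacZ), 19 and 11 (ODD) and 9 and 14 (EVEN), a ratio of 59.9 with a 95% counting interval of 10.5 to 2395. Gm15828, an Rpl9 copy in the adhesion gene Cadm2, had 1 and 0 counts in Input and 2 to 14 in the pull-downs, a ratio of 34.5 (5.91 to 1388). Gm9247 lost its call without Input replicate 1, and Gm15828 lost its call when any 1 of 7 libraries was left out.

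**Figure D3:**
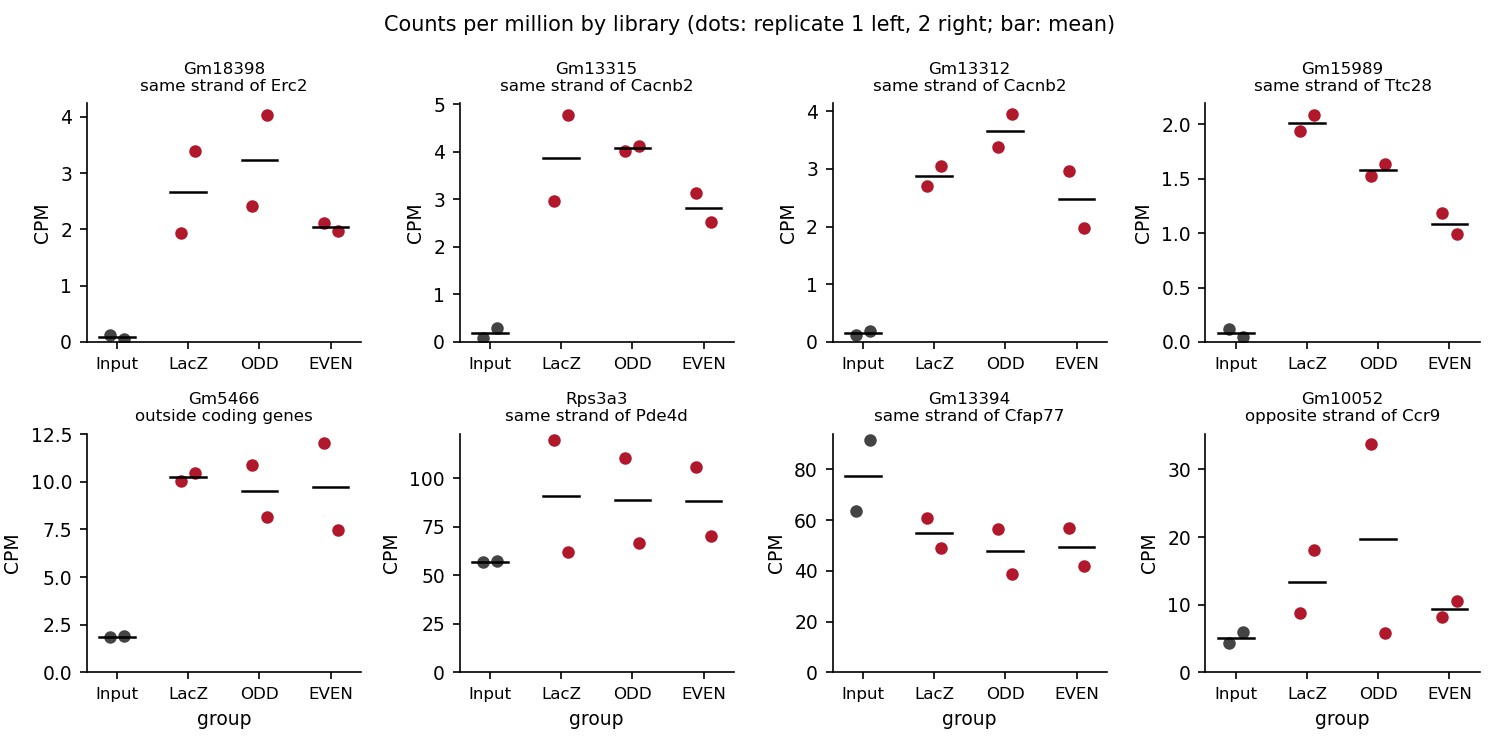
CPM of 8 named processed pseudogenes in each library (points; replicate 1 left and 2 right) with the group mean (bar). Gm18398, Gm13315, Gm13312, Gm15989 and Gm5466 lie above both Input libraries in all 6 pull-downs, as does Rps3a3, with 61.97 to 120 CPM against 56.6 and 57.2. Gm13394 lies below both Input libraries in all 6, and Gm10052 overlaps them.

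The exons of the host genes were called about as often as those of all genes. Of the 58 hosts of called same-strand members 5 were higher in the pull-downs, or 8.62%, beside 8.37% of all genes, and the 112 tested hosts of tested members had a median log2 fold change of -0.01. Without a filter on low counts, all 6 pull-downs lay above both Inputs in 32 of the 209 hosts of the 231 members, or 15.3%, where this held for 67.5% of the members and 17.6% of all genes. Of the tested members with a host value, 112 of 117 had a larger fold change than the host, but most of them passed the filter only through the pull-downs. Among the 12 that passed in Input and had a host value, 9 did.

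All but 2 of the 231 same-strand members lay wholly in an intron, of median length 21.1 kb. The share of members with all pull-downs above both Inputs, which needs no filter, was 43 of 66 in introns under 10 kb, 42 of 65 from 10 to 30 kb, 40 of 58 from 30 to 100 kb and 30 of 40 in longer ones, or 65.2%, 64.6%, 69.0% and 75%. Among tested members 16 of 41, 17 of 33, 12 of 24 and 17 of 25 were called, with medians of 1.72, 2.13, 2.22 and 4.14. These medians are over members that passed the filter mostly through the pull-downs, so no relation to intron length was read from them. On the opposite strand the order held in 4 of 17, 3 of 14, 2 of 21 and 1 of 11 members.

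More than 1 member on their strand lay in 20 hosts. All members were called in 3 of these hosts (Cacnb2, Pcdh9 and Tanc2, with 2 each), some in 7 (Il1rapl1 with 2 of 3, and Acyp2, Fam172a, Phf21a, Slc2a13, Stxbp4 and Tm9sf2 with 1 of 2), and none in 10, among them Usp32 with 3 members; of the 21 members in these 10 hosts 6 passed the filter and could be called. In the synaptic adhesion gene Il1rapl1, Gm14776 (a copy of Npm1) had 0 and 0 counts in Input and 7 to 19 in the pull-downs, and Gm8855 (a copy of Phb) in the same intron 1 and 1 counts in Input and 5 to 13 in the pull-downs. In Pcdh9, Gm17922 (a copy of Npm1) had 0 and 0 counts in Input and 5 to 22 in the pull-downs, in the intron that also holds Gm9247. In the postsynaptic scaffold gene Tanc2, Gm11652 and Gm11653 lie in separate introns and had log2 fold changes of 2.77 and 2.59. Beside these calls stand 62 of 124 tested same-strand members and 8.37% of all genes. All 62 passed the filter only through the pull-downs. For the 7 hosts with some members called, how many of the others were tested is not given here.

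**Figure D4:**
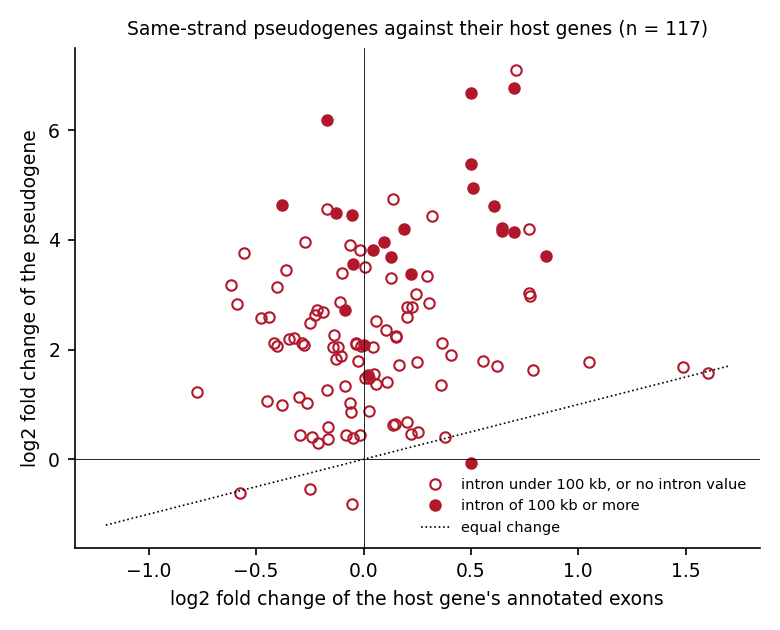
Log2 fold change of each tested same-strand pseudogene against that of its host gene's annotated exons, mean of pull-downs against Input (n = 117); filled points lie in introns of 100 kb or more and the dotted line marks equal change. All but 5 points lie above the line, most of them members that passed the filter only through the pull-downs, and the hosts center on -0.01.

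Fold changes of nearly identical copies rose with those of their parents, but in the median they lay above them. Among tested members with under 25% of their 50-mers unique, the fold change of the pseudogene rose with that of the parent (rho 0.61, n = 114 members). Of these, 60 lay within 0.5 of the parent on the log2 scale, and the median difference from the parent was 0.43. Among those with 90% or more unique rho was 0.02 (n = 79), and 7 lay within 0.5, but 66 of these 79 were same-strand members, of which 1 lay within 0.5. Outside coding genes the share within 0.5 was 44 of 85 under 25% unique and 5 of 11 at 90% or more. The points share libraries, and pseudogenes of 1 parent share its value. On the same strand alone, 1 of 11 tested members with under 25% unique 50-mers was called, with a median log2 fold change of 0.44, and 43 of 70 with 90% or more were, with a median of 2.66. Outside coding genes the medians at these levels of uniqueness were 0.46 and 0.37. Same-strand and outside copies in this fit thus had like medians where sequence was shared and unlike ones where it was unique. Of the 124 tested same-strand members, 110 passed the filter only through the pull-downs, so these calls and medians partly restate that choice. Gm11870, which passed in Input and has all 50-mers unique, had 0.37. In the pseudogenes chosen on Input alone with 90% or more unique, the medians were 1.79 (same-strand) and 0.06 (outside). The difference was not tested.

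**Figure D5:**
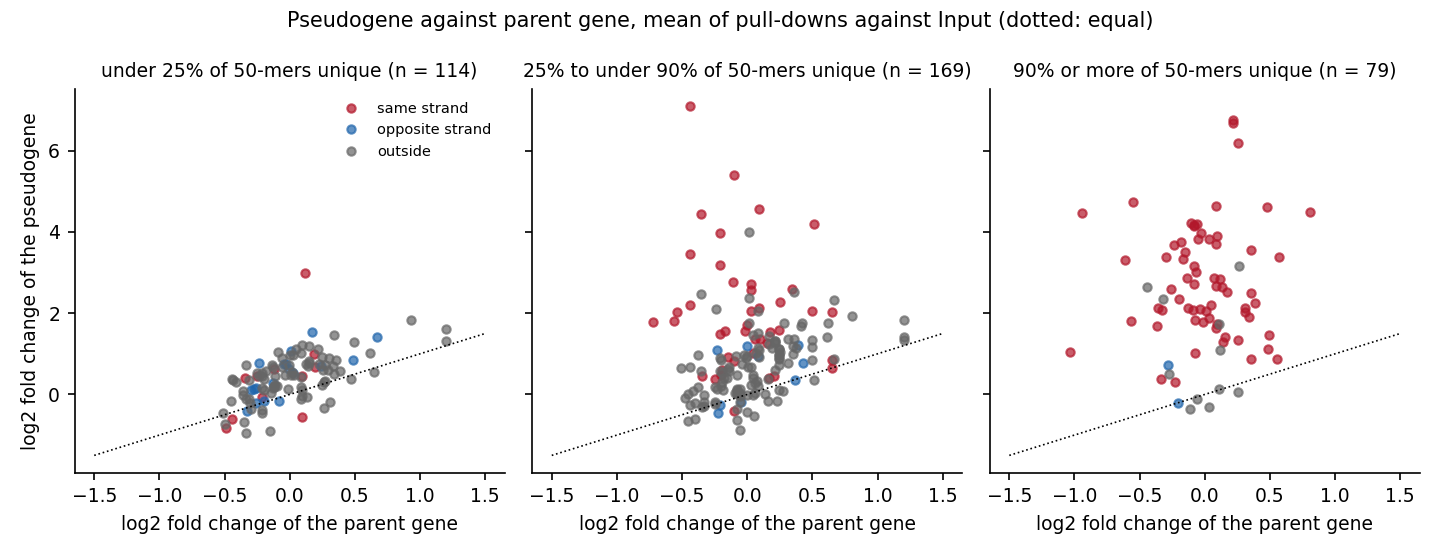
Log2 fold change of each tested pseudogene against that of its parent gene in 3 ranges of the share of 50-mers found in no other annotated transcript; the dotted line marks equal change. Points rise with the parent's value under 25% (n = 114, rho 0.61) and not at 90% or more (n = 79, rho 0.02), where most points are same-strand copies.

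The most abundant members are nearly identical to their parents, and in some their counts or fold changes lay close to the parent's. Gm10052, the Hnrnpa1 copy shown above with 0 differences, had counts of 105 and 122 (Input), 68 and 207 (LacZ), 420 and 60 (ODD) and 96 and 118 (EVEN). Its high value in ODD replicate 1 went with 35578 counts of Hnrnpa1 in that library, against 5840 to 15410 in the others, and its host Ccr9 was at 0 in all 8 libraries. Rps3a3 had 1375 and 1175 counts in Input and 694 to 1375 in the pull-downs, and its log2 fold change was 0.65 ± 0.32 (SE; adjusted p 0.28 by edgeR, 0.0474 with the replicate block), and Rps3a1 had 0.65 as well. Gm13394, a copy of Gapdh in Cfap77 with an identity of 99.9%, had 1544 and 1876 counts in Input and 403 to 704 in the pull-downs. Its log2 fold change was -0.62 ± 0.22 (SE; adjusted p 0.145 by edgeR, 0.0421 with the replicate block), beside -0.44 for Gapdh.

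On the opposite strand the called member was Gm9385 (chr9:116040593-116041064), a copy of the ribosomal protein gene Rpl24 in Gadl1. It had counts of 18 and 23 (Input), 30 and 41 (LacZ), 32 and 20 (ODD) and 24 and 30 (EVEN), and in CPM all pull-downs lay above both Inputs. Its log2 fold change was 1.54 ± 0.32 (SE), adjusted p 0.0261 by edgeR. It has 11.8% of its 50-mers unique, overlaps an annotated coding exon, and lies in a host that was at 0 in all libraries, and the call was lost when any 1 of 6 libraries was left out. The other abundant members there, Rbpj-ps3 in Cntnap2 and Gm7901 in Iqcm, had log2 fold changes of -0.41 and -0.17 with adjusted p-values of 0.294 and 0.702 by edgeR.

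Outside coding genes, Gm5466 (chr2:181896823-181898712), the Pabpc4 copy, had the most counts among the named increases. It had counts of 45 and 39 (Input), 78 and 120 (LacZ), 135 and 85 (ODD) and 142 and 83 (EVEN); the log2 fold change was 2.38 ± 0.28 (SE), adjusted p 0.0042 by edgeR, beside 0.01 for Pabpc4. Gm14824 (chrX:105327739-105328475), the Crb1 copy, had 4 and 5 counts in Input and 12 to 30 in the pull-downs; the log2 fold change was 3.17 ± 0.40 (SE), adjusted p 0.0049 by edgeR. Both calls were lost without Input replicate 1. Rps6-ps1, Gm5067 (a copy of Rrs1) and Gm43058 (a copy of Lsm14a) had values of 2.52, 2.48 and 2.34. The call of Rps6-ps1 was lost when any 1 of the 8 libraries was left out and with DESeq2 (adjusted p 0.0718), that of Gm43058 without any 1 of 6 libraries and that of Gm5067 without any 1 of 3. Gm43058 lies within the noncoding gene 5031425E22Rik on the same strand. Of the 17 outside members that lay within a noncoding gene on the same strand, 6 were tested and 1 was called.

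The member that fell was Gm3226, a copy of the alpha-tubulin gene Tuba1b that partly overlaps a coding gene. It had counts of 233 and 223 (Input), 37 and 60 (LacZ), 60 and 76 (ODD) and 58 and 55 (EVEN), and decreased by 0.95 ± 0.21 (SE) on the log2 scale, adjusted p 0.0329 by edgeR. The call was lost when any 1 of 7 libraries was left out. Among the most abundant outside members, Gm15459, a copy of the chaperone gene Hspa8, had 2727 and 2736 counts in Input and 977 to 1988 in the pull-downs (log2 fold change 0.17, adjusted p 0.698 by edgeR), and Gm8730, a copy of Rplp0, had 0.04 (adjusted p 0.974). Hist1h2al, a histone H2A copy, had 20.1 and 20.3 CPM in Input, 75.9 to 86.0 in replicate 1 of the pull-downs and 23.1 to 28.0 in replicate 2, so all 6 lay above both Inputs and the replicates lay apart; its log2 fold change was 1.39 (adjusted p 0.266 by edgeR, 0.049 with the replicate block).

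Grouped by what the parent encodes, copies of ribosomal protein genes were the largest group, with 63 same-strand, 25 opposite-strand and 100 outside members. Of those tested, 11 of 27, 1 of 13 and 2 of 50 were called higher, with medians of 2.06, 0.70 and 0.68. Examples were Gm48869, an Rps6 copy in Dip2c, with 4 and 5 counts in Input and 17 to 31 in the pull-downs, and Gm15670, an Rpl21 copy in Erbb4, with 1 and 1 in Input and 5 to 11 in the pull-downs. Of 6 tested same-strand copies of glycolysis genes 5 were called, with a median of 3.84, and the 4 tested outside copies had a median of 0.81. Besides Gm13315 and Gm9247 the called copies were of Gapdh: Gm17068 in Gnaq had 4 and 10 counts in Input and 30 to 56 in the pull-downs, Gm12403 in Ube2r2 9 and 5 in Input and 12 to 21, and Gm3695 in Cox16, with 40.1% of its 50-mers unique, 0 and 0 in Input and 4 to 18. The copy that was not called was Gm13394. Of copies of chromatin protein genes, 4 of 5 tested on the same strand were called, with a median of 2.60, and the 8 tested outside had a median of 0.76. In the other groups, 1 of 3 tested same-strand copies of translation factor genes, 1 of 3 of respiratory chain genes, 1 of 3 of cytoskeleton genes and 2 of 4 of RNA-binding protein genes were called. Of proteasome or ubiquitin genes the tested same-strand copies were Gm13650 (Ube2v2) and Gm6542 (Psma4), with log2 fold changes of 2.06 and 1.35 and adjusted p-values of 0.0934 and 0.0554 by edgeR, and of chaperone genes Gm15542 (Dnaja1), with 0.63 (adjusted p 0.577); these 3 were not called. Beside these stand 62 of 124 for all same-strand members and 8.37% of all genes. All 62 called same-strand members passed the filter only through the pull-downs, so the shares and medians of these groups partly restate that choice. Gm13394, which was not called, passed in Input. No test was made of a family.

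Other noncoding gene types at the same locations put the pseudogenes in context. On the same strand as a coding gene, 843 of 1095 tested genes of type TEC (to be experimentally verified), or 77.0%, were higher in the pull-downs, with a median log2 fold change of 2.88, as were 101 of 151 sense-intronic genes, with a median of 2.27. The same-strand pseudogenes, at 62 of 124 and 2.11, lay below both. Other types had few tested genes there. Higher were 2 of 9 lincRNA genes (median 0.88), 0 of 6 antisense genes (1.01) and 2 of 3 unprocessed pseudogenes (3.95). On the opposite strand, 12 of 35 TEC genes and 4 of 72 antisense genes were higher, and outside coding genes 76 of 225 TEC genes and 30 of 351 lincRNA genes. No test was made of these differences between types.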

How the data were processed

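The authors deposited whole-number read counts and FPKM values for each gene of 8 libraries. The submitters' processing notes name cutadapt 3.2, Bowtie2 2.4.2, Picard, HTSeq 0.13.5 and GRCm38, without settings. The deposited FPKM was count over length and column total (largest relative difference 6.66e-14). Gene types and coordinates came from GENCODE M21, which held 55230 of 55471 identifiers, with equal lengths in 99.1% of these.

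The counts were fitted in R 4.3.3 by edgeR 4.0.16 on all 8 libraries (quasi-likelihood test, group as the only term, TMM, filter on low counts by group, Benjamini-Hochberg adjustment over 16524 genes, two-sided), and the fit was checked on simulated data. The labels number the replicates and describe 2 independent experiments, but they state no block or pairing. Same-numbered libraries deviated together from their group means (r of 0.517 to 0.719), so a blocked fit was tried. Other alternatives were DESeq2 1.42.0, other scalings, filters and memberships, a GC correction, and leaving out each library. Parents were found with blastn 2.17.0 among coding transcripts. Intervals cover counting error only. Replicates of a group differed by a chi-square per degree of freedom of 31.5 to 61.5, so none was a duplicate.

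Named by rule, within each location, were up to 5 called members with the largest increase, 4 or more Input counts and all 6 pull-downs above their own Input, the 3 with most counts and up to 3 that fell; and across locations, 3 with 0 to 3 Input counts and the 3 with the lowest p for ODD and EVEN against LacZ. Some results under this rule are not reported here. Other members named as examples were chosen after their values were seen. Members and lists were chosen with earlier results of these data known. A planned check of 50-mers against the whole genome was not run, since no genome sequence was used here; annotated transcripts took its place.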

Additional observations from a re-analysis of the deposited data

How the results depend on the processing

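The 62 same-strand, 1 opposite-strand and 12 outside calls (75 in all, with 1 lower) rested on low counts. With 50 counts in 2 libraries required, 2, 0 and 2 were called (4 in all, 0 lower), which is 4.76% of the 84 members tested beside 4.84% of 13320 genes, and the medians were 0.70, 0.11 and 0.23; 9 were called in LacZ, 3 in ODD and 3 in EVEN, against 75, 48 and 35. With no filter beyond 1 count, 105, 5 and 38 were called (148 in all, 3 lower), which is 18.9% of the 782 members beside 7.45% of genes. In that fit 143 were called in LacZ, 111 in ODD and 80 in EVEN, and 4 for ODD and EVEN against LacZ. The share of all genes for these last counts is not given here. DESeq2 called 20 of 223 outside members and 88 in all, which is 23.3% of the 378 tested beside 10.6% of all genes.

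The replicate block gave 98 same-strand and 45 outside calls (144 in all, 5 lower), 147 in LacZ, 94 in ODD and 88 in EVEN. The block with the GC trend removed gave 2 opposite-strand and 43 outside calls (137 in all, 15 lower), 156 in LacZ, 92 in ODD and 82 in EVEN, with medians of 1.94 same-strand and 0.40 outside. Recentred, an alternative added after seeing the data, it gave 94, 4 and 52 (150 in all, 10 lower), 161 in LacZ, 96 in ODD and 82 in EVEN. Members called higher were 38.1% of those tested with the block, 36.2% with the GC trend removed and 39.7% recentred. Beside these, 16.0%, 13.0% and 15.5% of all genes were called higher. The share of calls that were higher was 98.7%, 96.6% with the block, 90.1% with the GC correction and 93.8% recentred, where over all genes it was 82.4%, 54.9%, 34.2% and 48.1%.

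Among members with 50% or more of their 50-mers unique, also added after seeing the data, 0 opposite-strand and 7 outside were called and 0 were lower. Their medians were 2.30 same-strand and 0.37 opposite-strand. At 50% to under 75%, 75% to under 90% and 90% or more unique, 4 of 59, 1 of 16 and 2 of 16 tested outside members were called. On the same strand it was 8 of 19, 6 of 11 and 43 of 70, and on the opposite strand 0 of 4, 0 of 2 and 0 of 3. Over all genes 8.37% were called higher. Leaving out members that overlap a coding exon gave 0 opposite-strand and 0 lower.

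Leaving out each library gave 6 to 49 same-strand, 0 to 2 opposite-strand and 0 to 9 outside calls, 6 to 58 in all and 0 to 1 lower, with 4 to 53 in LacZ, 1 to 40 in ODD and 0 to 22 in EVEN. The medians ran from 1.82 to 2.36 same-strand, 0.37 to 0.83 opposite-strand and 0.53 to 0.65 outside. The lowest counts came without Input replicate 1, when 1 Input library remains and is assumed to vary like the other groups. Calls over all genes were also fewer in each fit without a library than in the main fit, so the fall was not limited to the pseudogenes. The filter let more members through in these fits, with 442 to 488 tested against 378 in the main fit. The cause of these changes was not tested.

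Among named members that were not called, Gm8730 turned from 0.04 to -0.0059 without the filter, to -0.073 with the block, and to -0.082, -0.15, -0.16 or -0.21 without 1 of 4 libraries (range -0.21 to 0.19). Gm7901 turned from -0.17 to 0.060 with the recentred GC correction and to 0.043 without Input replicate 1 (range -0.37 to 0.043), and Rps23-ps2 from 0.15 to -0.051 without ODD replicate 1 (range -0.051 to 0.27). Depth limits members with 0 to 3 Input counts most: their direction was read, but not the size.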
